A study of Mus musculus with 15 samples.

Results

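Splicing factors and heterogeneous nuclear ribonucleoproteins (hnRNPs) were followed across 15 mouse arrays through 83 genes of 17097 measured, read by 194 of the 28898 probe sets that the platform annotation assigns to 1 gene. The genes were taken by symbol alone: 12 Snrp genes, 12 Lsm genes, 9 Sf3a and Sf3b genes, 2 U2af genes, 11 Prpf genes, 9 Srsf genes, 17 Hnrnp genes, 5 Celf genes, 4 Elavl genes and 2 Nova genes. The symbol rule itself reads no measured value, but members and families were chosen with earlier results of these data known. Hnrnpu, Hnrnpf, Srsf5, Srsf7 and Celf6 match the symbols but had no probe set assigned to them alone among those used, and were not analysed here.

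The spliceosome removes introns from messenger RNA precursors. Its small nuclear ribonucleoproteins (snRNPs) are built on rings of Sm proteins, encoded by Snrp genes, or on rings of Lsm proteins, and are joined by the Sf3 complex that grips the branch point, by U2af at the 3′ splice site and by Prpf proteins that drive the catalytic steps. SR proteins, encoded by Srsf genes, and hnRNPs bind exons and introns and tip the choice between splice sites, often in opposite directions. Celf, Nova and the neuronal Elavl (Hu) proteins are RNA-binding regulators best known from neurons, where they set neuron-specific splicing and messenger stability.

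Each group held 3 arrays, and the analysed RNA was of cells that lacked Cdkn2c in every group. Myc primary tumours had been grown in the cortex of immunodeficient nude mice from cerebellar cells infected with Myc, taken from Cdkn2c-/-, Trp53-/- mice with the Atoh1-GFP reporter. Tumour cells had been purified on Percoll. Myc secondary tumours came from sphere cells cultured from such tumours and transplanted again. Shh tumours had arisen spontaneously in Cdkn2c-/-; Trp53Fl/Fl; Nestin-Cre mice, in which Nestin-Cre deletes Trp53 in neural progenitors and their progeny. GFP-positive and GFP-negative cells had been sorted from cerebella of Cdkn2c-/-, Trp53-/-, Atoh1-GFP mice at postnatal day 6; the source labels of these 6 samples name them spontaneous tumour, while the design text names them sorted cerebellar cells, and the design text was followed. The ages of the tumour-bearing mice were not given in the sources used here, nor was it stated whether arrays within a group stand for separate animals, so that p-values measure only the spread between these samples, which may be technical. All values below are log2 signals, on which a difference of 1 is a 2-fold change, and a gene was called different when its limma p, adjusted over all 17097 genes by the Benjamini-Hochberg method, was below 0.05.

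Cdkn2c, the cell cycle inhibitor deleted in all groups, had group means of 3.42 to 4.07, all below the background level of 4.77; Trp53 was not analysed here. Atoh1, the transcription factor after which the reporter is named, had a mean log2 signal of 8.92 ± 0.39 (SD, n = 3) in GFP-positive cells and 4.09 ± 0.42 in GFP-negative cells, below background. It stood at 9.74 ± 0.41 in Shh tumours, 4.62 ± 0.18 in Myc primary and 5.31 ± 1.39 in Myc secondary tumours. The Myc probe set read 7.54 ± 2.04 in Myc primary tumours, 9.36 ± 0.65 in Myc secondary tumours and 8.49 ± 0.55 in Shh tumours; whether it detects the introduced Myc was not tested. Within-group correlations between arrays ran from 0.962 to 0.995, and array GFP-negative 3 had the narrowest spread of signals, with an interquartile range of 2.99 against 3.33 to 3.78 on the other 14 arrays.

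Most of these genes differed somewhere among the 5 groups, and the families did so in different directions. In the F test over the 5 groups, 65 of 83 members passed, 78.3%, against 47.8% of all genes. GFP-negative cells had the lowest mean of the 5 groups in 56 members, 67.5%, against 30.9% of all genes. Of the 46 Snrp, Lsm, Sf3, U2af and Prpf genes, 38 were lowest in GFP-negative cells, and 17 were highest in Myc primary and 17 in Myc secondary tumours, 37.0% each, against 20.9% and 23.0% of all genes. Of the 26 Srsf and Hnrnp genes, 16 were highest in GFP-positive cells, 61.5%, and of the 11 Celf, Elavl and Nova genes 10 were, 90.9%, against 17.5% of all genes. The 18 members that did not pass included Nova2, Celf1, Snrpn, Srsf6, Srsf9, Srsf11, Srsf12, Hnrnpc, Hnrnpd and Sf3b1. In Myc primary tumours 2 of the 83 members had a mean below background, 2.41%, against 41.5% of all genes. In samples of mixed cells, fewer cells of a type and less RNA per cell cannot be told apart.

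**Figure D1:**
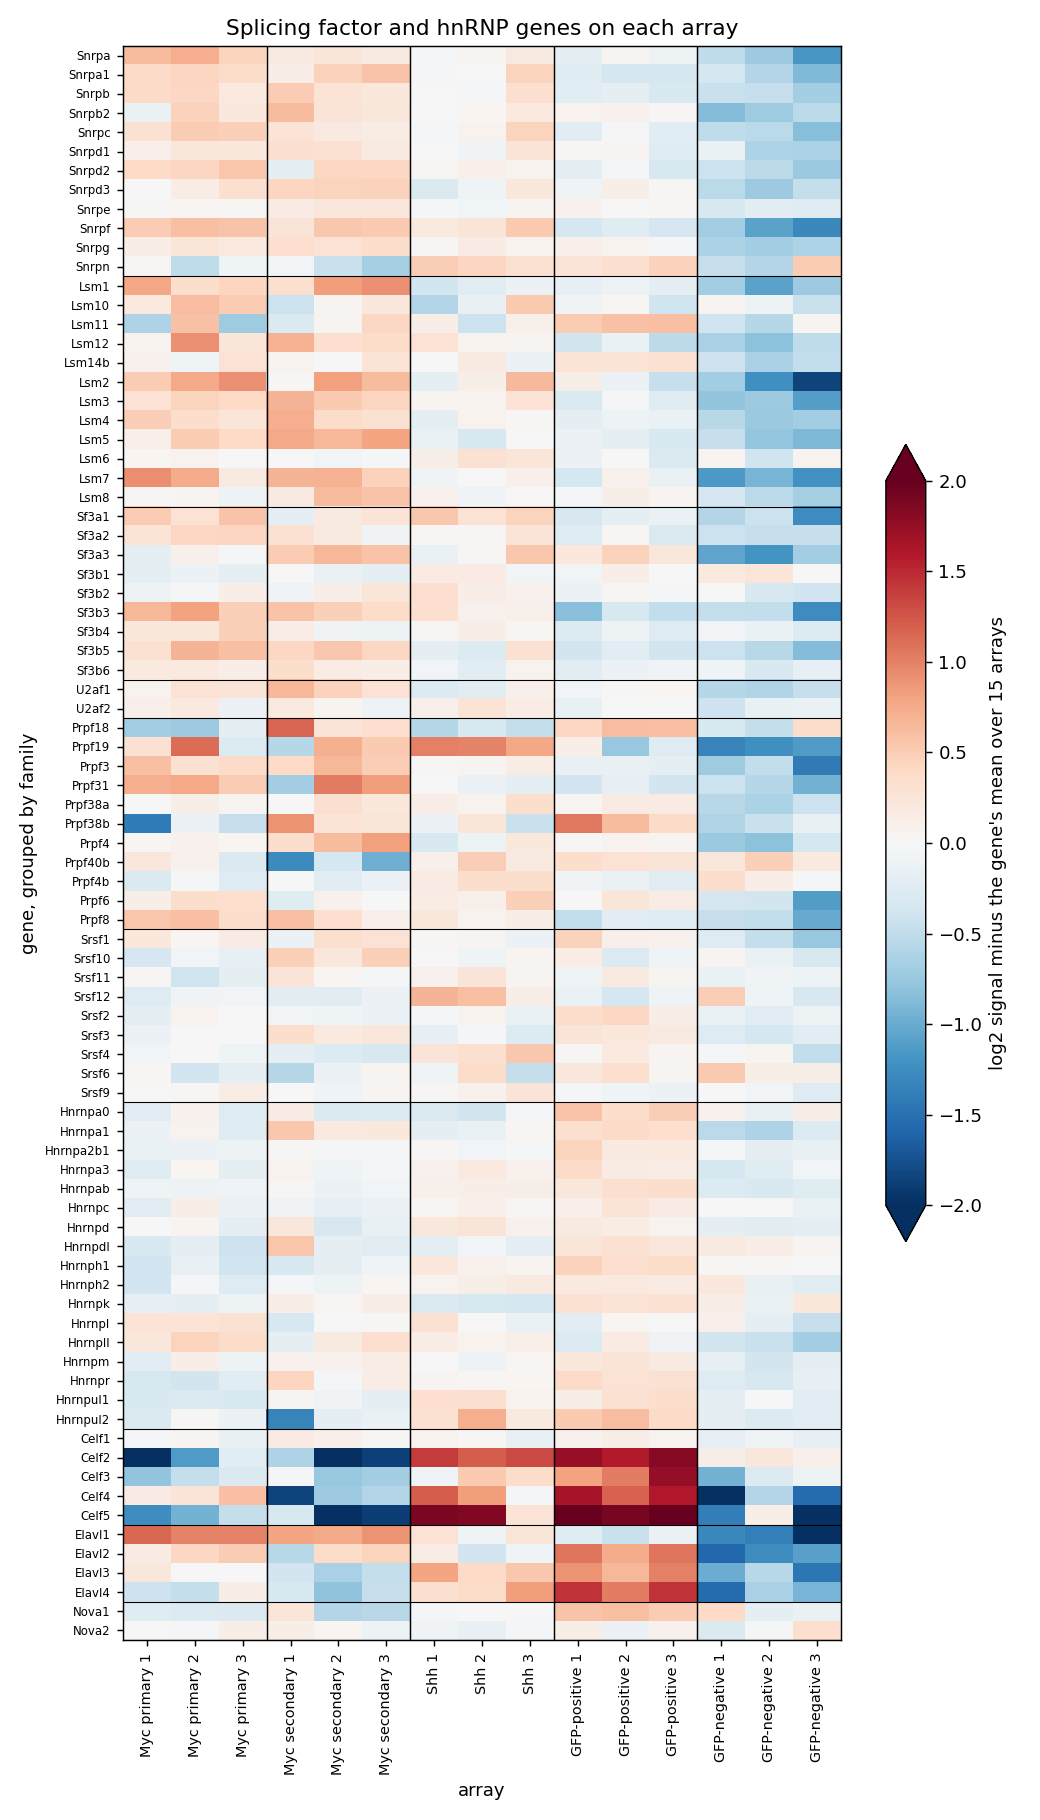
Heat map of the 83 member genes (rows, grouped by family) on the 15 arrays (columns), coloured by log2 signal minus the gene's own mean over the 15 arrays, with the scale ending at 2 in either direction. Most Snrp, Lsm and Sf3 rows are blue on the 3 GFP-negative arrays, and the rows of Celf2 to Celf5 and Elavl2 to Elavl4 are red on the 3 GFP-positive arrays.

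Snrpf, which encodes the Sm protein F of the snRNP ring, had the smallest p of the F test among the members (adjusted p = 1.3e-05). Its log2 signal was 10.86, 10.94 and 10.91 in Myc primary tumours, 10.60, 10.88 and 10.87 in Myc secondary tumours, 10.54, 10.61 and 10.87 in Shh tumours, 9.98, 10.10 and 10.0005 in GFP-positive cells and 9.65, 9.27 and 9.06 in GFP-negative cells. The 9 tumour arrays lay above the 3 GFP-positive arrays, and these above the 3 GFP-negative arrays, with no overlap. Myc primary tumours exceeded GFP-positive cells by 0.88 ± 0.15 (SE, adjusted p = 0.00096) and GFP-negative cells by 1.57 ± 0.15 (adjusted p = 7e-06). Snrpg, another Sm ring protein, read 12.55, 12.66 and 12.61 (Myc primary), 12.75, 12.71 and 12.77 (Myc secondary), 12.44, 12.58 and 12.49 (Shh), 12.53, 12.49 and 12.40 (GFP-positive) and 11.79, 11.74 and 11.81 (GFP-negative). The Myc secondary arrays were the 3 highest for Snrpg and the GFP-negative arrays the 3 lowest, and Myc primary tumours exceeded GFP-negative cells by 0.83 ± 0.09 (adjusted p = 2.1e-05).

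Snrpa encodes the U1 snRNP protein A, which binds the U1 RNA stem loop. Its values were 10.14, 10.24 and 9.96 in Myc primary, 9.70, 9.77 and 9.69 in Myc secondary and 9.49, 9.58 and 9.69 in Shh tumours, with 9.34, 9.58 and 9.42 in GFP-positive and 9.01, 8.79 and 8.35 in GFP-negative cells. The 3 Myc primary arrays were above all other arrays. The rise over Shh tumours was 0.53 ± 0.15 (adjusted p = 0.035), over GFP-positive cells 0.67 ± 0.15 (adjusted p = 0.0063) and over GFP-negative cells 1.40 ± 0.15 (adjusted p = 2.1e-05). The difference of secondary from primary Myc tumours was -0.40, which did not pass the test.

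The stretches just upstream of Snrpa and Snrpf are shown with those of Elavl1 and Hnrnpul1, described further on, as 1 window with CACGTG and 3 with CCAAT: Snrpf stands first in the F test, and Snrpa, Elavl1 and Hnrnpul1 are among the 11 members called between Myc primary and Shh tumours. They are the 250 bases before an annotated start in RefSeq (GRCm38.p6), 5′ to 3′ on the gene's strand, with capitals marking CACGTG, the E-box that Myc binds with Max, and CCAAT or its reverse complement ATTGG. Snrpa lies at chr7:27196272-27196521 on the minus strand, Snrpf at chr10:93589659-93589908 on the minus strand, Elavl1 at chr8:4325101-4325350 on the minus strand and Hnrnpul1 at chr7:25754760-25755009 on the minus strand.
Snrpa: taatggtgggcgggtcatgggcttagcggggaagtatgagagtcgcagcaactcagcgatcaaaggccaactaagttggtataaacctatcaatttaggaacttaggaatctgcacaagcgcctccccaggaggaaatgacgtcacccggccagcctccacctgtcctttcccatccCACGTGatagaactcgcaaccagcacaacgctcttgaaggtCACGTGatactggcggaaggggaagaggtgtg
Snrpf: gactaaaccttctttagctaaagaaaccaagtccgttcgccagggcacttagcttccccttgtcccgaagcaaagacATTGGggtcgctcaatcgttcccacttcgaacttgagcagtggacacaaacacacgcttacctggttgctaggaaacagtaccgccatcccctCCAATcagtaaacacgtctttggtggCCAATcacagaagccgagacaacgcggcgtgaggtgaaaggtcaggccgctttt
Elavl1: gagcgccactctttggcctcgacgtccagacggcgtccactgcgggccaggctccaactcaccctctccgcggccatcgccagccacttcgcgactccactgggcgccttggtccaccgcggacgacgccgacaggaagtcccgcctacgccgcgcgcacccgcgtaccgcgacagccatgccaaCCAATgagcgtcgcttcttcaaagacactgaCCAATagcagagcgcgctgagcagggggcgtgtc
Hnrnpul1: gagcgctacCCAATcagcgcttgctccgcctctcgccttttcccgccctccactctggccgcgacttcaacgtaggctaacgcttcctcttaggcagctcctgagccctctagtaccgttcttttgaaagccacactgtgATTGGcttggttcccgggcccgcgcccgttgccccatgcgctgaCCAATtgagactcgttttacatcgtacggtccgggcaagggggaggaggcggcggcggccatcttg
Snrpa had 2 CACGTG sequences, beginning 73 and 32 bases before the start, and no CCAAT. Snrpf, Elavl1 and Hnrnpul1 had no CACGTG in these windows, and 3, 2 and 3 CCAAT or ATTGG sequences. Of the 83 genes, 71 had an upstream window in the table, 113 windows in all. CACGTG was found in at least 1 window of 5 genes (Snrpa, Prpf3, Prpf40b, Hnrnpa3 and Hnrnpd), 7.04% of 71, against 6.86% of 27025 genes with windows of that length. Members have more windows per gene, and by window the shares were 5.31% of 113 and 6.02% of 32851. CCAAT on either strand was found in 37 of 71 genes, 52.1%, against 37.5% of all genes (47.8% and 33.8% by window), with 12 of 15 Hnrnp genes, 4 of 10 Snrp genes and 2 of 7 Sf3 genes. CACGTG and CCAAT or ATTGG cannot overlap. A match is a description of letters in the window and was not tied to binding in these samples.

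The Lsm genes included 5 of the 10 members with the smallest F test p. Lsm2 to Lsm8 form the ring on U6 snRNA in the nucleus, and with Lsm1 in place of Lsm8 the ring acts in messenger decay in the cytoplasm. Lsm3 read 11.09, 11.25 and 11.20 in Myc primary, 11.49, 11.33 and 11.23 in Myc secondary and 10.86, 10.87 and 11.08 in Shh tumours, and 10.51, 10.77 and 10.57 in GFP-positive and 10.01, 10.08 and 9.70 in GFP-negative cells. Lsm4 read 11.36, 11.21 and 11.12 in Myc primary, 11.60, 11.23 and 11.17 in Myc secondary, 10.69, 10.94 and 10.90 in Shh, 10.69, 10.77 and 10.73 in GFP-positive and 10.31, 10.12 and 10.18 in GFP-negative arrays. For both genes the primary Myc arrays lay above all Shh, GFP-positive and GFP-negative arrays. The rise over GFP-positive cells was 0.57 ± 0.13 for Lsm3 (adjusted p = 0.0067) and 0.50 ± 0.13 for Lsm4 (adjusted p = 0.012).

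Lsm1, the decay-specific subunit, read 9.47, 9.04 and 9.13 in Myc primary, 9.02, 9.53 and 9.62 in Myc secondary and 8.34, 8.49 and 8.58 in Shh tumours, and 8.54, 8.60 and 8.50 in GFP-positive and 7.995, 7.63 and 7.97 in GFP-negative cells. The 6 Myc tumour arrays did not overlap the other 9, and the rise over Shh tumours was 0.74 ± 0.17 (adjusted p = 0.011). Lsm5 read 10.002, 10.41 and 10.31 in Myc primary, 10.66, 10.57 and 10.68 in Myc secondary, 9.77, 9.58 and 9.90 in Shh, 9.79, 9.72 and 9.59 in GFP-positive and 9.43, 9.13 and 8.997 in GFP-negative arrays. Lsm7 read 9.02, 8.82 and 8.26 in Myc primary, 8.77, 8.79 and 8.54 in Myc secondary, 8.02, 8.07 and 8.19 in Shh, 7.74, 8.17 and 7.95 in GFP-positive and 6.93, 7.16 and 6.87 in GFP-negative arrays. Both were higher in every Myc tumour array than in every Shh array, by 0.49 ± 0.15 for Lsm5 (adjusted p = 0.036) and 0.61 ± 0.18 for Lsm7 (adjusted p = 0.039) between the primary tumours and Shh tumours.

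Between Myc primary and Shh tumours the members as a whole did not stand out: 6 rose and 5 fell of 83, 7.23% and 6.02%, where 8.46% of all genes rose and 7.33% fell, and the members' median difference was 0.0017 against 0.08 over all genes. With cyclic loess scaling the split was 6 higher and 9 lower, where 10.9% of all genes rose and 7.93% fell. The rises were Elavl1 (0.89 ± 0.27, adjusted p = 0.043), Lsm1, Lsm7, Sf3b5 (0.58 ± 0.17, adjusted p = 0.035), Snrpa and Lsm5. The falls were Celf2 (-2.65 ± 0.57, adjusted p = 0.0074), Celf5 (-2.22 ± 0.64, adjusted p = 0.034), Hnrnpul1 (-0.54 ± 0.12, adjusted p = 0.0078), Prpf4b (-0.49 ± 0.12, adjusted p = 0.019) and Hnrnph1 (-0.43 ± 0.11, adjusted p = 0.015). No gene of the Snrp, Lsm or Sf3 families was called lower, and their medians were 0.21, 0.33 and 0.24. Snrpn had the lowest difference of these families, -0.60, which was not called (adjusted p = 0.14). With arrays centred on their median gene the 46 Snrp, Lsm, Sf3, U2af and Prpf genes held 2 rises and no fall, against 8.14% and 7.41% of all genes. Celf2, Hnrnpul1 and Lsm1 kept their call with each of the 6 arrays left out in turn, and the other 8 lost it without at least 1 array, Elavl1 without any of the 6 (adjusted p from 0.075 to 0.15). The rises numbered 3 without Myc primary 1 or 3 and 1 without Myc primary 2, Shh 1 or Shh 2, and the falls 2 without Myc primary 1 and 3 without Myc primary 3, Shh 1 or Shh 2.

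**Figure D2:**
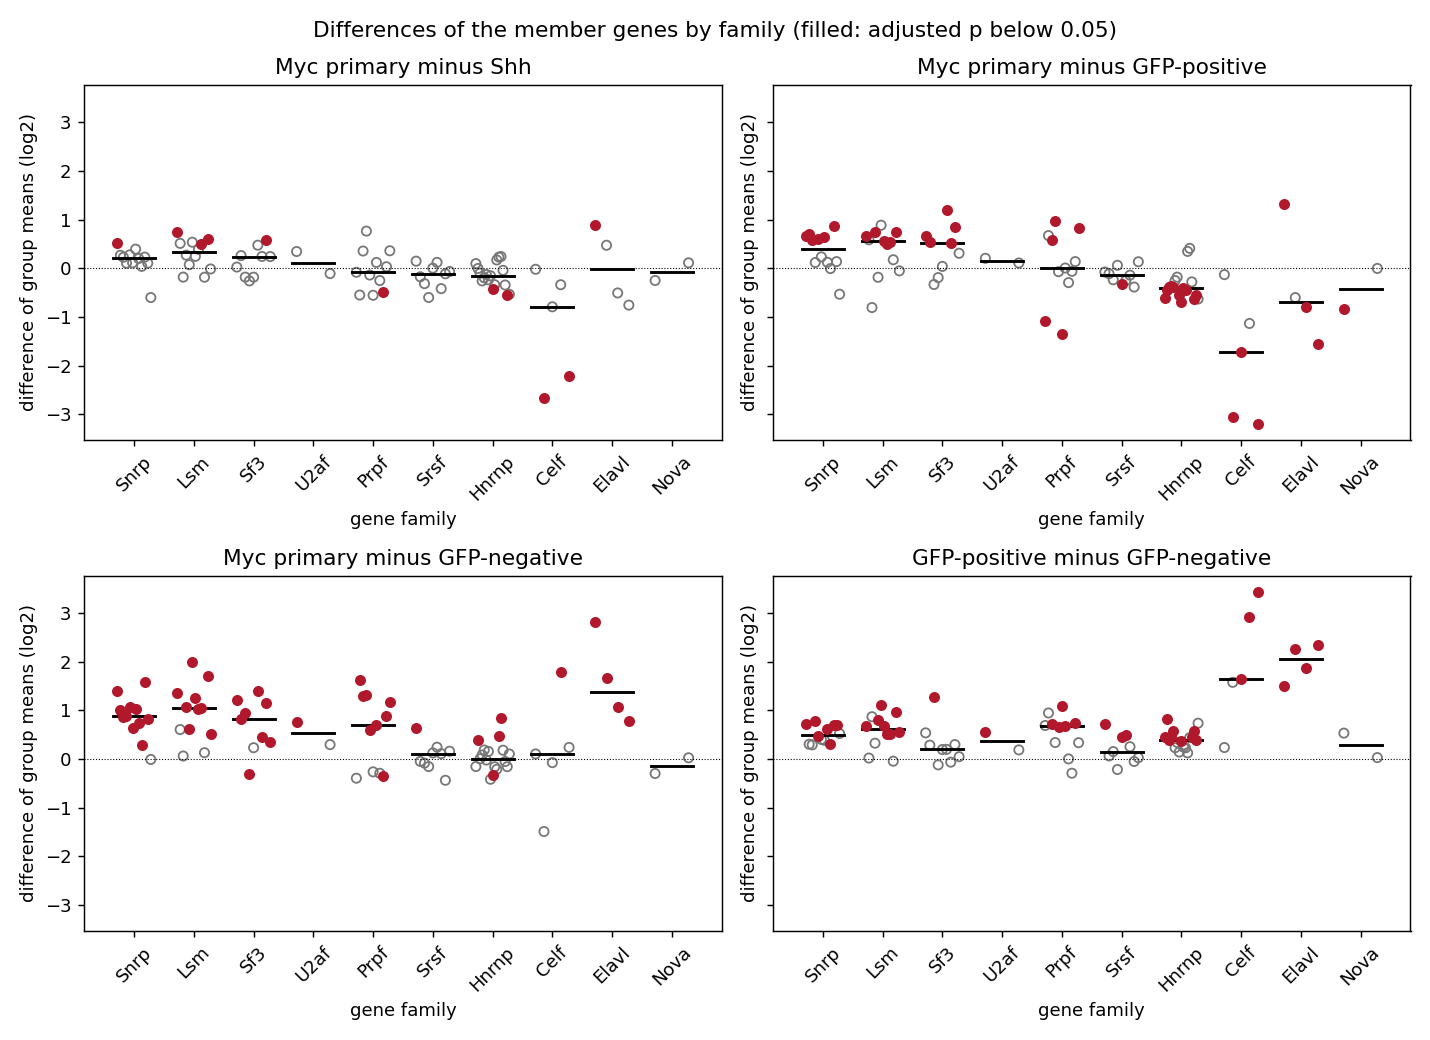
Differences of group means (log2, vertical axis) of each member gene by family (horizontal axis) in 4 comparisons; filled points had an adjusted p below 0.05, open points did not, and bars are family medians. The Snrp, Lsm and Sf3 medians are above 0 and the Hnrnp median is below 0 in Myc primary minus GFP-positive (0.40, 0.55 and 0.52 against -0.40), and all family medians are above 0 in GFP-positive minus GFP-negative.

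Against GFP-positive cells, which carry the granule progenitor marker Atoh1, Myc primary tumours had higher spliceosome genes and lower hnRNP genes. All Myc primary arrays are in the earlier and all GFP-positive arrays in the later of the title runs described below. With a term for the run 4 of the 41 calls between these groups were kept, which limits every difference between them given here and in the paragraphs that follow. Of 83 members 21 rose and 20 fell, 25.3% and 24.1%, against 14.5% and 10.3% of all genes. Among the 46 Snrp, Lsm, Sf3, U2af and Prpf genes 20 rose and 2 fell, with a median of 0.40. Among 17 Hnrnp genes none rose and 11 fell, with a median of -0.40. The median over all genes was 0.06. The 46 are called spliceosome genes for short, by symbol alone. They include the decay-specific Lsm1 and also Lsm10, Lsm11, Lsm12 and Lsm14b, which are outside the Lsm2 to Lsm8 ring. Of these, Lsm1 (0.67) and Lsm12 (0.74) were among the rises, and Lsm10, Lsm11 and Lsm14b were not called. Granule progenitor markers moved with this comparison: 9 of 11 were lower in Myc primary tumours than in GFP-positive cells, with a median of -3.50, and their mean log2 signal was 5.76 to 5.94 in Myc primary, 5.04 to 6.22 in Myc secondary, 9.59 to 9.88 in Shh, 8.99 to 9.33 in GFP-positive and 7.36 to 7.53 in GFP-negative arrays; 4 of 11 were below background in Myc primary tumours and 1 in GFP-positive cells. Against Shh tumours 11 of 11 were lower, with a median of -3.43. Their part in the results was not tested. The counts of members depend on how arrays are scaled to each other. Centring each array on its median gene moved the median of all genes to -0.24. It gave 4 rises and 26 falls among the members, where 9.21% of all genes rose and 16.1% fell. The 46 spliceosome genes held 3 and 3 (median 0.11, or 0.35 above that of all genes). The Hnrnp genes held 0 and 14 (median -0.70, or 0.46 below that of all genes).

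Sf3b3, a scaffold subunit of the SF3B complex in the U2 snRNP, had the largest rise of the 46 over GFP-positive cells. It read 11.02, 11.16 and 10.84 in Myc primary, 10.92, 10.83 and 10.72 in Myc secondary and 10.70, 10.45 and 10.46 in Shh tumours, and 9.52, 10.04 and 9.87 in GFP-positive and 9.88, 9.87 and 9.10 in GFP-negative cells. All tumour arrays were above all sorted-cell arrays, and the 2 sorted groups overlapped. Myc primary tumours exceeded GFP-positive cells by 1.20 ± 0.20 (adjusted p = 0.0009) and Shh tumours exceeded them by 0.72 ± 0.20 (adjusted p = 0.049, and 0.062 to 0.20 without single arrays). The next rises were Prpf31 (0.98 ± 0.33, adjusted p = 0.049), a U4/U6 protein whose call was lost without any single array (adjusted p = 0.074 to 0.13), Snrpf, Sf3b5 (0.85 ± 0.17, adjusted p = 0.0025) and Prpf8 (0.83 ± 0.17, adjusted p = 0.0029), the large protein at the catalytic centre. Prpf38b fell (-1.35 ± 0.31, adjusted p = 0.007), as did Prpf18 (-1.08 ± 0.26, adjusted p = 0.0083), a factor of the second catalytic step. Prpf18 was also lower in Shh tumours than in GFP-positive cells (-0.999 ± 0.26, adjusted p = 0.034, and 0.065 to 0.12 without single arrays).

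Differences of the hnRNP genes between Myc primary tumours and GFP-positive cells lay between -0.69 and 0.41. Hnrnph1, a binder of G-rich RNA that regulates alternative exons, read 11.83, 12.07 and 11.83 in Myc primary, 11.91, 12.02 and 12.13 in Myc secondary and 12.43, 12.31 and 12.28 in Shh tumours, and 12.68, 12.55 and 12.58 in GFP-positive and 12.25, 12.24 and 12.21 in GFP-negative cells. The 6 Myc tumour arrays were the lowest of the 15 and the 3 GFP-positive arrays the highest. The fall in Myc primary tumours was -0.69 ± 0.11 against GFP-positive cells (adjusted p = 0.00042) and -0.32 ± 0.11 against GFP-negative cells (adjusted p = 0.032).

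Hnrnpul1, an hnRNP U-like protein, read 9.72, 9.74 and 9.72 in Myc primary, 10.08, 9.95 and 9.83 in Myc secondary, 10.36, 10.34 and 10.09 in Shh, 10.14, 10.33 and 10.37 in GFP-positive and 9.83, 10.02 and 9.80 in GFP-negative arrays. The 3 Myc primary arrays were below the other 12. Hnrnpk, a poly(C)-binding hnRNP, was lowest in Shh tumours instead, with 11.40, 11.35 and 11.35, against 11.52, 11.51 and 11.58 in Myc primary, 11.82, 11.73 and 11.81 in Myc secondary, 11.99, 11.95 and 11.99 in GFP-positive and 11.80, 11.55 and 11.89 in GFP-negative arrays. It fell in both tumour types against GFP-positive cells, by 0.61 ± 0.10 on the log2 scale in Shh tumours (difference -0.61, adjusted p = 0.0031) and 0.44 ± 0.10 in Myc primary tumours (difference -0.44, adjusted p = 0.0067). These 2 comparisons share the GFP-positive arrays.

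Hnrnpa1, which often opposes SR proteins at splice sites, read 11.54, 11.73 and 11.42 in Myc primary, 12.21, 11.85 and 11.87 in Myc secondary, 11.48, 11.53 and 11.70 in Shh, 11.99, 12.05 and 12.005 in GFP-positive and 11.12, 11.05 and 11.39 in GFP-negative arrays. It was 0.45 ± 0.14 lower in Myc primary tumours than in GFP-positive cells (adjusted p = 0.029) and 0.38 ± 0.14 higher than in GFP-negative cells (adjusted p = 0.047), the calls being lost without 5 and 4 of 6 single arrays (adjusted p up to 0.11 and 0.17). Hnrnpr (-0.63 ± 0.12, adjusted p = 0.0019) and Hnrnpa0 (-0.61 ± 0.16, adjusted p = 0.012) fell further against GFP-positive cells; without GFP-positive 1 the Hnrnpa0 call was lost (adjusted p = 0.052). Hnrnpa0 also fell in Shh tumours (-0.70 ± 0.16, adjusted p = 0.015). The remaining falls among Hnrnp genes, Hnrnpdl, Hnrnph2, Hnrnpa2b1, Hnrnpab and Hnrnpa3, were between -0.56 and -0.37; of these Hnrnpab kept its call with each array left out in turn, but its 5 probe sets tested by themselves were called in both directions (-0.39 and -0.34 against 0.54, adjusted p = 0.0063, 0.045 and 0.045).

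**Figure D3:**
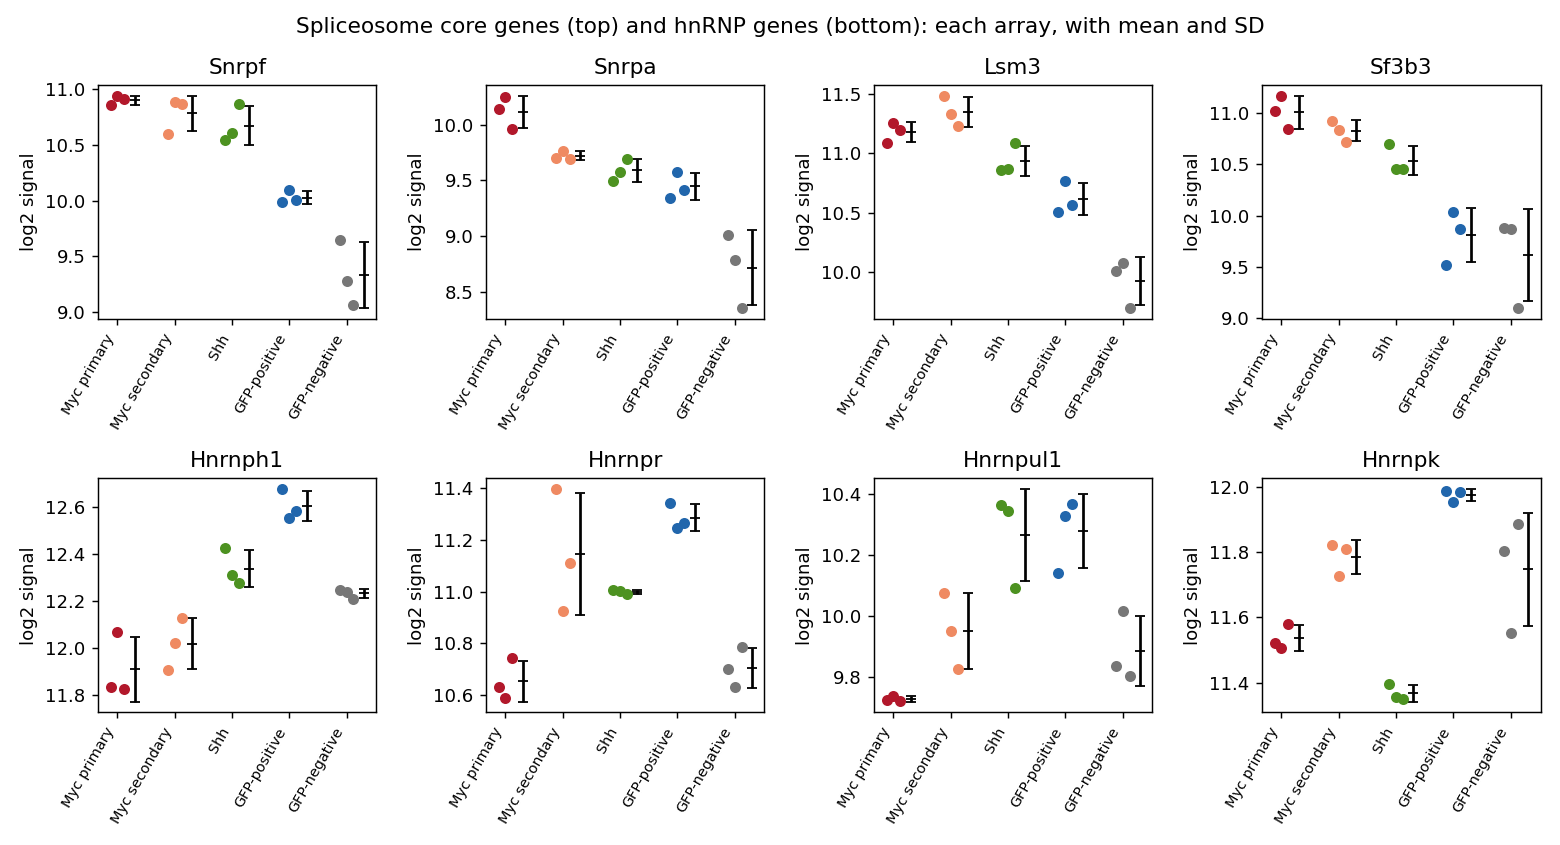
Log2 signal on each array (points) for 4 spliceosome genes (top) and 4 hnRNP genes (bottom) in the 5 groups, with the group mean and SD as bars; each panel has its own vertical range, which does not start at 0. Snrpf, Snrpa, Lsm3 and Sf3b3 are highest in a Myc group and lowest in GFP-negative cells, while Hnrnph1 and Hnrnpk are highest in GFP-positive cells.

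Of 9 Srsf genes, none was called between Myc primary and Shh tumours. Against GFP-positive cells 1 of 9 fell in Myc primary tumours, 11.1%, near the 10.3% of all genes, namely Srsf2 (-0.33 ± 0.11, adjusted p = 0.048, and up to 0.18 without single arrays). Srsf1, the founding SR protein, read 11.79, 11.61 and 11.74 in Myc primary, 11.46, 11.90 and 11.86 in Myc secondary, 11.61, 11.63 and 11.47 in Shh, 12.03, 11.68 and 11.66 in GFP-positive and 11.31, 11.10 and 10.82 in GFP-negative arrays. Its 3 GFP-negative values were the lowest of the 15, and the other groups overlapped. Srsf1 was 0.63 ± 0.16 higher in Myc primary tumours (adjusted p = 0.0082) and 0.71 ± 0.16 higher in GFP-positive cells (adjusted p = 0.0052) than in GFP-negative cells. Srsf2 (0.45 ± 0.11, adjusted p = 0.0086) and Srsf3 (0.49 ± 0.10, adjusted p = 0.0028) were also higher in GFP-positive than in GFP-negative cells, so that 3 of 9 Srsf genes rose there, 33.3%, against 12.6% of all genes.

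Srsf3 differed by probe set. The brightest of its 6 probe sets read 11.63, 11.75 and 11.73 in Myc primary and 11.99, 11.95 and 11.93 in GFP-positive arrays. The dimmest read 6.15, 5.85 and 5.79 in Myc primary, 7.78, 7.29 and 7.16 in Myc secondary, 7.19, 7.28 and 6.81 in Shh, 8.54, 8.50 and 8.22 in GFP-positive and 6.42, 6.68 and 7.40 in GFP-negative arrays, with every Myc primary array below the rest. With each of the 28898 probe sets tested by itself, this one was lower in Myc primary than in Shh tumours (-1.16 ± 0.24, adjusted p = 0.0067) and in GFP-positive cells (-2.49 ± 0.24, adjusted p = 1.6e-05), and higher in Myc secondary than in Myc primary tumours (1.48, adjusted p = 0.01). The other 5 Srsf3 probe sets had differences between -0.25 and -0.08 against GFP-positive cells, none called. Srsf3 was also the one member whose probe sets were called in both directions between Myc primary tumours and GFP-negative cells.

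Hnrnpa2b1 was split in a similar way. Its brightest probe set read 12.48 ± 0.02 in Myc primary tumours and 12.48 ± 0.08 in GFP-negative cells, a difference of 0.0039 (adjusted p = 0.98), while the other 3 were lower in the tumours by 0.74 to 1.19 (differences -0.74, -1.13 and -1.19, adjusted p = 0.0033, 0.00014 and 6.5e-05). Those 3 probe sets were lowest in Myc primary tumours and highest in GFP-negative cells, and the brightest one was highest in GFP-positive cells. One Hnrnpr probe set was higher in secondary than in primary Myc tumours (1.67, adjusted p = 0.025). Which transcript form each probe set reads was not analysed here. Counted by probe set, 13 of 194 were higher and 16 lower in Myc primary than in Shh tumours, against 7.22% and 7.19% of all 28898, and 32 were higher and 48 lower than in GFP-positive cells, against 12.4% and 11.4%. Against GFP-negative cells 86 were higher and 8 lower in Myc primary tumours, against 17.6% and 12.8%, and 90 and 0 in GFP-positive cells, against 14.0% and 11.7%. Shh tumours had 5 higher and 18 lower than GFP-positive cells, against 4.26% and 4.28%, and Myc secondary tumours 2 higher and 0 lower than Myc primary tumours, against 1.11% and 0.533%.

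**Figure D4:**
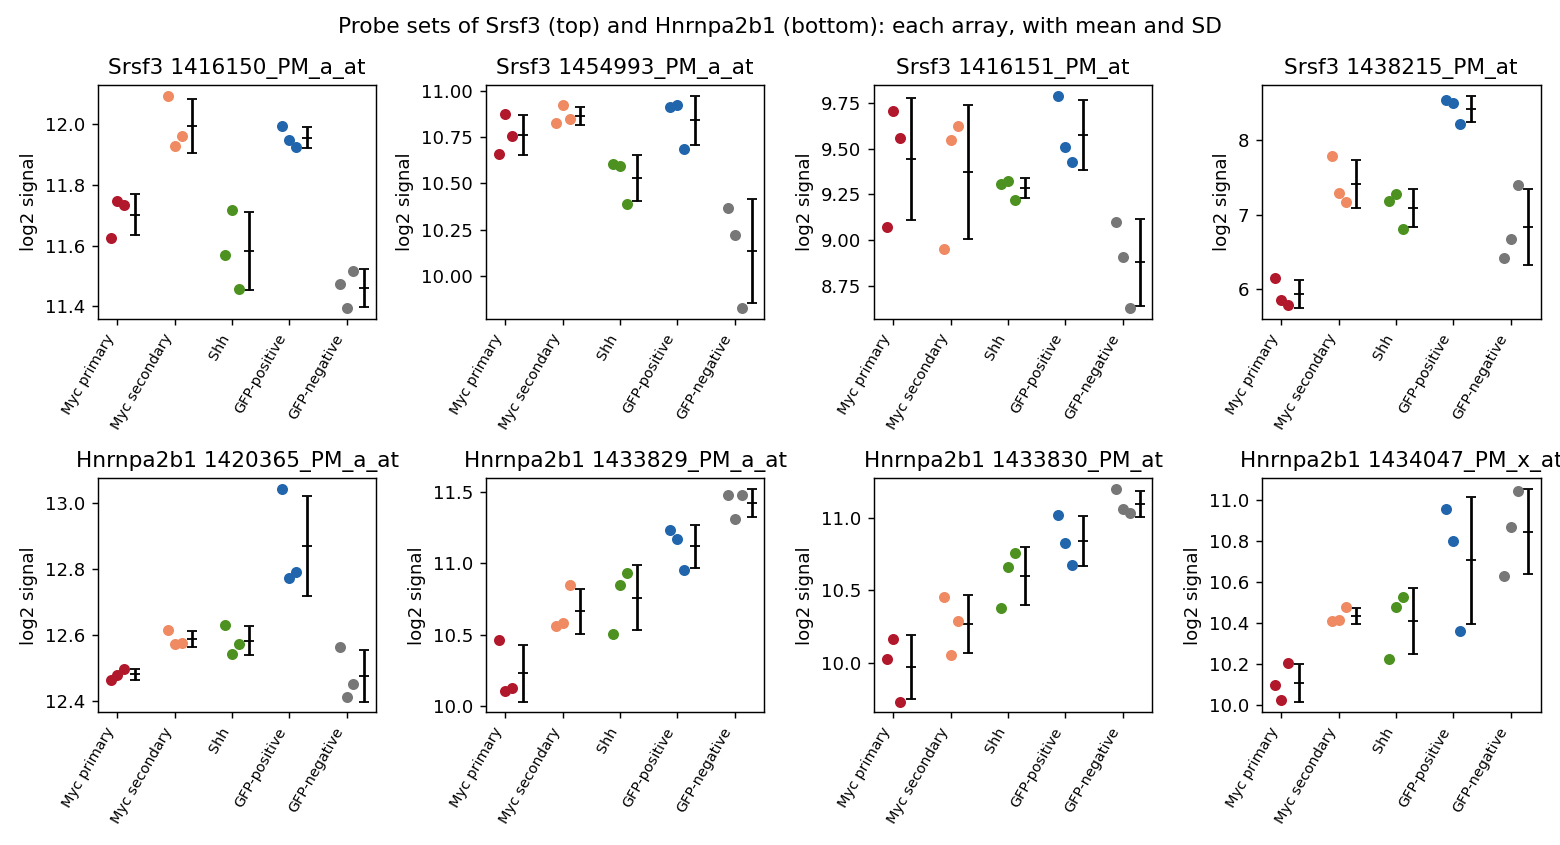
Log2 signal on each array (points) for 4 of the 6 Srsf3 probe sets (top) and the 4 Hnrnpa2b1 probe sets (bottom), with group mean and SD as bars; each panel has its own vertical range, which does not start at 0. The last Srsf3 panel has Myc primary lowest, at 5.79 to 6.15, which the other 3 panels do not show, and the last 3 Hnrnpa2b1 panels have their highest mean in GFP-negative cells.

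GFP-negative cells, the mixed remainder of the cerebellum, had lower spliceosome genes than Myc primary tumours and, the Sf3 family apart, than GFP-positive cells. Myc primary tumours had 44 members higher and 3 lower, 53.0% and 3.61%, against 19.1% and 14.7% of all genes, with a median of 0.46 against 0.05. Under cyclic loess the split was 32 higher and 16 lower, where 15.3% of all genes rose and 19.4% fell, so the falls were near that share. The Hnrnp genes went from 3 higher and 1 lower (median 0.0039) to 1 higher and 9 lower (median -0.31). The 46 spliceosome genes went from 35 and 2 (median 0.84) to 27 and 2 (median 0.55). The largest rises were Elavl1 (2.80 ± 0.27, adjusted p = 8.2e-06), Lsm2 (1.99 ± 0.30, adjusted p = 0.00026), Celf4 (1.79 ± 0.43, adjusted p = 0.0058), Lsm7 (1.71 ± 0.18, adjusted p = 1.7e-05), Elavl2 (1.66 ± 0.25, adjusted p = 0.0002) and Prpf19 (1.61 ± 0.37, adjusted p = 0.0041). Prpf4b (-0.36), Hnrnph1 (-0.32) and Sf3b1 (-0.31) fell; without Myc primary 1 or GFP-negative 1 no fall was called, and without Myc primary 3 or GFP-negative 2 there was 1. All 7 Sm ring genes measured were higher, by 0.29 (Snrpe) to 1.57 (Snrpf), although Snrpe read -0.027 under cyclic loess.

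GFP-positive cells also exceeded GFP-negative cells, in 41 members with none lower, 49.4%, against 12.6% of all genes higher and 13.8% lower; the medians were 0.46 and 0.04. Under cyclic loess the counts were 22 and 3, where 7.76% of all genes rose and 17.5% fell. Centring on the median gene put the median of all genes at 0.54 and gave 74 and 0 (members' median 0.96), against 44.0% and 9.43% of all genes. In the main fit 7 of 12 Snrp genes (58.3%), 8 of 12 Lsm genes (66.7%) and 5 of 11 Prpf genes (45.5%) rose. Of the Sf3 genes 1 of 9 rose, 11.1%, near the share of all genes, with a median of 0.20. Beyond the neuronal genes below, the largest differences were Elavl1 (1.49 ± 0.27, adjusted p = 0.0013) and Sf3a3 (1.28 ± 0.18, adjusted p = 0.00017), followed by Lsm2, Prpf38b, Lsm7 and Hnrnpa1; of these 6, Lsm2 and Prpf38b lost their call without single arrays (adjusted p up to 0.073 and 0.098). Without GFP-negative 3 there was 1 fall. That array and all GFP-positive arrays are in the later of the title runs described below, and GFP-negative 1 and 2 in the earlier. With a term for the run 29 of the 41 calls were kept.

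The 2 sorted populations differ in cell types, and markers of those types moved with these results. All 12 microglia and macrophage markers were above background in GFP-negative cells, with mean log2 signals of 9.26 to 10.63 on its arrays, and 11 of 12 were below background in GFP-positive cells (3.93 to 4.32). The 12 markers of astroglia were at 9.40 to 10.48 in GFP-negative and 5.15 to 5.35 in GFP-positive arrays, and the 10 of the oligodendrocyte lineage at 8.31 to 9.54 and 4.85 to 4.92. Myc primary tumours read 5.68 to 6.24 for microglia, 5.15 to 7.17 for astroglia and 4.79 to 8.79 for the oligodendrocyte lineage. The part of these cells in the differences was not tested.

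The Elavl genes split into Elavl1 and the other three. Elavl1 (HuR), the ubiquitous member that stabilises messengers with AU-rich elements, read 9.56, 9.40 and 9.40 in Myc primary, 9.19, 9.17 and 9.30 in Myc secondary and 8.70, 8.34 and 8.65 in Shh tumours, and 8.17, 7.97 and 8.28 in GFP-positive and 7.12, 7.04 and 5.79 in GFP-negative cells. No group overlapped another. Myc primary tumours exceeded GFP-positive cells by 1.31 ± 0.27 (adjusted p = 0.0034). Of its 4 probe sets tested each by itself, 3 rose against Shh tumours, by 0.62 to 1.46 (adjusted p = 0.02, 0.045 and 0.0024), and the fourth read -0.16 (adjusted p = 0.71).

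Elavl3 (HuC), a neuronal member, read 9.47, 9.24 and 9.25 in Myc primary, 8.87, 8.61 and 8.77 in Myc secondary, 10.04, 9.65 and 9.78 in Shh, 10.15, 9.91 and 10.26 in GFP-positive and 8.25, 8.69 and 7.80 in GFP-negative arrays. Elavl4 (HuD) read 9.07, 9.02 and 9.62 in Myc primary, 9.18, 8.68 and 9.03 in Myc secondary, 9.80, 9.85 and 10.33 in Shh, 10.92, 10.50 and 10.93 in GFP-positive and 7.95, 8.84 and 8.56 in GFP-negative arrays. In both genes all Shh and GFP-positive arrays lay above all Myc arrays. The fall of Myc primary tumours against GFP-positive cells was -0.79 ± 0.20 for Elavl3 (adjusted p = 0.01) and -1.55 ± 0.25 for Elavl4 (adjusted p = 0.00067), and neither was called against Shh tumours. Elavl2 (HuB) read 10.84, 11.09 and 11.19 in Myc primary, 10.12, 11.04 and 11.12 in Myc secondary, 10.82, 10.29 and 10.59 in Shh, 11.75, 11.42 and 11.75 in GFP-positive and 9.11, 9.42 and 9.60 in GFP-negative arrays. Elavl2 was called lower against GFP-positive cells in Shh tumours (-1.07 ± 0.25, adjusted p = 0.018, and up to 0.081 without single arrays) and was not called in Myc primary tumours. GFP-positive cells exceeded GFP-negative cells by 2.33 ± 0.25 for Elavl4, 2.27 ± 0.25 for Elavl2 and 1.86 ± 0.20 for Elavl3 (adjusted p = 2e-05, 2.2e-05 and 1.8e-05).

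Among the Celf genes, whose proteins bind GU-rich RNA, Celf2 and Celf5 carried the 2 largest differences of all members between tumour types. Celf2 read 7.45, 9.02 and 9.94 in Myc primary, 9.52, 7.15 and 8.28 in Myc secondary and 11.54, 11.36 and 11.47 in Shh tumours, and 11.89, 11.73 and 11.97 in GFP-positive and 10.26, 10.37 and 10.24 in GFP-negative cells. The 6 Myc arrays were the lowest of the 15 and the most widely spread, with SDs of 1.26 and 1.19 in the 2 Myc groups against 0.07 to 0.12 elsewhere. The fall against GFP-positive cells was -3.06 ± 0.57 (adjusted p = 0.0017).

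Celf5 read 5.56, 5.86 and 6.32 in Myc primary, 6.48, 4.12 and 4.92 in Myc secondary, 8.68, 8.65 and 7.08 in Shh, 9.34, 8.70 and 9.29 in GFP-positive and 5.41, 6.92 and 4.70 in GFP-negative arrays. No GFP-positive or Shh array overlapped the Myc and GFP-negative arrays. The difference of Myc primary tumours from GFP-positive cells was -3.19 ± 0.64 (adjusted p = 0.0028), and GFP-positive cells exceeded GFP-negative cells by 3.43 ± 0.64 (adjusted p = 0.0016). Celf3 was near background in Myc primary tumours, at 4.62, 4.93 and 5.12, in Myc secondary tumours, at 5.38, 4.65 and 4.72, and in GFP-negative cells, at 4.46, 5.13 and 5.31. It was at 5.33, 5.93 and 5.78 in Shh tumours and 6.22, 6.44 and 7.16 in GFP-positive cells. GFP-positive cells exceeded GFP-negative cells by 1.64 ± 0.30 for Celf3 (adjusted p = 0.0012). The Celf3 difference of Myc primary tumours from GFP-positive cells was -1.71 ± 0.30 (adjusted p = 0.001). Celf4 read 9.08, 9.17 and 9.51 in Myc primary, 7.07, 8.18 and 8.33 in Myc secondary, 10.13, 9.75 and 8.90 in Shh, 10.56, 10.08 and 10.52 in GFP-positive and 6.72, 8.33 and 7.35 in GFP-negative arrays. Its GFP-positive values exceeded the GFP-negative ones by 2.92 ± 0.43 (adjusted p = 0.00025). The broadly expressed Celf1 did not pass the F test (adjusted p = 0.24), with group means between 11.64 and 11.88.

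**Figure D5:**
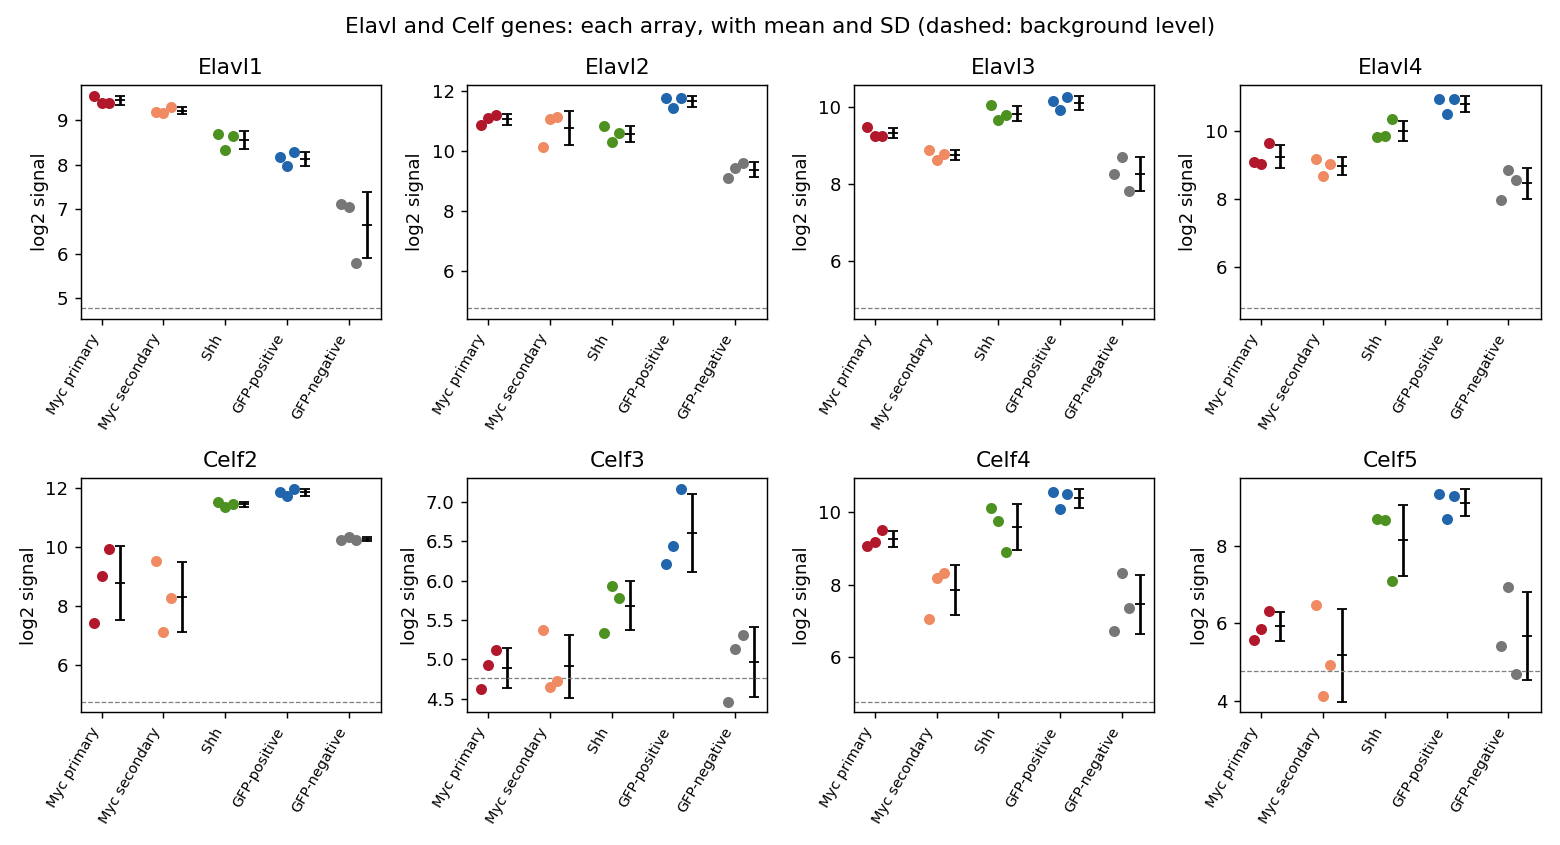
Log2 signal on each array (points) for the 4 Elavl genes and 4 Celf genes in the 5 groups, with group mean and SD as bars; dashed lines mark the background level of 4.77, and each panel has its own vertical range, which does not start at 0. Elavl1 descends from Myc primary tumours (9.45) to GFP-negative cells (6.65), whereas the other 7 genes have their highest mean in GFP-positive cells.

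Nova1, a neuronal splicing regulator that binds YCAY sequences, read 9.29, 9.25 and 9.23 in Myc primary, 9.76, 8.94 and 8.96 in Myc secondary, 9.49, 9.52 and 9.51 in Shh, 10.10, 10.12 and 10.03 in GFP-positive and 9.93, 9.34 and 9.39 in GFP-negative arrays. The GFP-positive arrays were the 3 highest, 0.83 ± 0.20 above Myc primary tumours (difference -0.83, adjusted p = 0.0096). Nova2 had group means of 3.50 to 3.61, all below background, and gives no comparison. Snrpn, a brain-enriched relative of Snrpb, read 9.73, 9.21 and 9.62 in Myc primary, 9.66, 9.26 and 9.04 in Myc secondary, 10.20, 10.14 and 10.02 in Shh, 9.96, 10.04 and 10.17 in GFP-positive and 9.26, 9.12 and 10.22 in GFP-negative arrays. Its 6 Myc arrays lay below all Shh and GFP-positive arrays, and the F test did not pass (adjusted p = 0.058), the GFP-negative arrays reaching from 9.12 to 10.22. By itself, another of the 3 Snrpn probe sets was lower in Myc primary than in Shh tumours (-0.73, adjusted p = 0.02).

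Of the 11 Celf, Elavl and Nova genes, 1 rose and 6 fell in Myc primary tumours against GFP-positive cells, with a median of -0.83; of all genes 14.5% rose and 10.3% fell. In GFP-positive against GFP-negative cells 7 rose with none lower, with a median of 1.64; of all genes 12.6% rose and 13.8% fell. The list of postmitotic neuron markers was also highest in GFP-positive cells: its mean log2 signal over 16 genes was 9.50 to 9.84 in GFP-positive arrays, 8.41 to 8.85 in Shh, 7.84 to 8.46 in Myc primary, 7.37 to 7.73 in Myc secondary and 6.76 to 7.08 in GFP-negative arrays. Not all of the 11 genes followed that order of groups. Elavl1 was highest in Myc primary tumours, and Elavl2 was higher there (11.04) than in Shh tumours (10.57). Celf2 and Nova1 were lower in Myc primary tumours (8.80 and 9.26) than in GFP-negative cells (10.29 and 9.55). None of the 16 markers was below background in GFP-positive cells or Shh tumours, 2 were in Myc primary and 3 in Myc secondary tumours. The part of neuronal content in these differences was not tested.

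In Shh tumours against GFP-positive cells 2 members rose and 5 fell, 2.41% and 6.02%, against 4.63% and 2.92% of all genes, and these counts varied widely with the fit. Snrpf (0.65 ± 0.15, adjusted p = 0.02) and Sf3b3 rose, and Elavl2, Prpf18, Hnrnpa0, Hnrnpk and Srsf3 (-0.37 ± 0.10, adjusted p = 0.042) fell. Cyclic loess gave 4 rises and 6 falls, against 5.54% and 3.63% of all genes. Centring on the median gene, with all genes at a median of -0.30, gave none and 7, against 2.81% and 5.91% of all genes. The 6 arrays alone gave 7 and 11, against 11.8% and 6.61% of all genes, and array weights 13 and 17, against 14.0% and 9.32%. Leaving out Myc primary 3, GFP-negative 3 and Myc secondary 1 gave 7 and 10, against 10.2% and 5.90% of all genes. All Shh arrays are in the earlier and all GFP-positive arrays in the later of the title runs described below, and with a term for the run none of the 7 calls was kept, Hnrnpk included, and the Sf3b3 difference turned sign. Hnrnpk alone kept its call with each array left out in turn; the rises numbered 1 without any single Shh array and 0 without any single GFP-positive array, and the falls 2 without any single Shh array, 1 without GFP-positive 1 or 3 and 3 without GFP-positive 2.

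No member was called between Myc secondary and Myc primary tumours by limma, where 0.257% of all genes rose and 0.462% fell. An unadjusted p below 0.05 was reached by 17 of 83 members and by 2137 of all 17097 genes. The largest differences were Celf4 (-1.40 ± 0.43, adjusted p = 0.18), Prpf18 (1.12 ± 0.26, adjusted p = 0.076), Prpf38b (1.12 ± 0.31, adjusted p = 0.14) and Prpf40b (-0.87 ± 0.21, adjusted p = 0.087). Without Myc secondary 1 there was 1 rise and without Myc secondary 2 there was 1 fall. Centring on the median gene, which put all genes at a median of 0.30, gave 4 rises, where 1.25% of all genes rose. The members' median was -0.0001 against -0.03 over all genes.

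Of the other splicing genes, 107 were measured of 124 listed. In Myc primary against Shh tumours 15 rose and 9 fell, the falls being near the share over all genes, of which 8.46% rose and 7.33% fell. Among the snRNP assembly factors, which load Sm rings onto snRNA, 5 of 13 rose, 38.5%, and none fell: Gemin6 read 9.43 ± 0.25 against 7.90 ± 0.14 (1.53 ± 0.30, adjusted p = 0.0042), Gemin5 8.94 ± 0.03 against 7.70 ± 0.07 (1.24 ± 0.15, adjusted p = 0.00014), and Strap rose by 0.68 ± 0.18 (adjusted p = 0.021). Against GFP-positive cells 7 of 13 rose, 53.8% against 14.5% of all genes, with a median of 0.94. Among other spliceosome proteins 9 of 38 rose, 23.7%, and 2 fell, 5.26%, in Myc primary against Shh tumours, Snu13 of the U4/U6.U5 tri-snRNP by 0.84 ± 0.12 (adjusted p = 0.00066), Ddx46 by 1.04 ± 0.18 (adjusted p = 0.0019) and Usp39 by 0.66 ± 0.11 (adjusted p = 0.0018).

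Of 16 SR kinases and SR-related genes none rose and 4 fell in Myc primary against Shh tumours, where 8.46% of all genes rose and 7.33% fell, with a median of -0.26 against 0.08 over all genes. Clk1, a kinase that phosphorylates SR proteins, read 10.19 ± 0.16 against 11.11 ± 0.31 (-0.92 ± 0.18, adjusted p = 0.0035), Clk4 fell by 0.61 ± 0.13 (difference -0.61, adjusted p = 0.0076) and Luc7l2, a U1-associated protein, by 0.73 ± 0.16 (difference -0.73, adjusted p = 0.0074). Among 34 further splicing regulators 1 rose and 3 fell, 2.94% and 8.82%, the falls again near the share of all genes, including Rbfox3 (NeuN; -1.02 ± 0.16, adjusted p = 0.00086) and Tia1 (-1.002 ± 0.12, adjusted p = 0.00019), while Rbm17 rose by 0.45 ± 0.12 (adjusted p = 0.021). None of 6 exon junction complex genes was called between these tumours. Rbfox3 is also among the postmitotic neuron markers above.

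The sample titles form an earlier run, which holds the Myc primary, Shh and GFP-negative 1 and 2 arrays, and a later run, which holds the GFP-positive, Myc secondary and GFP-negative 3 arrays. What the runs are is not stated in the sources used here. With a term for the run, which rests on the GFP-negative arrays alone, Myc primary tumours against GFP-positive cells gave 0 rises and 5 falls. In that fit 7.51% of all genes rose and 9.29% fell, so the members did not exceed the share over all genes in either direction. It kept 4 of the 41 calls, with a median of 0.26 for the 46 spliceosome genes and -0.38 for the Hnrnp genes. GFP-positive against GFP-negative cells gave 34 rises and no fall, where 16.2% of all genes rose and 12.2% fell. Of the 41 calls between these sorted cells 29 were kept. Within the earlier run, Myc primary against GFP-negative cells without array 3 gave a members' median of 0.40, against 0.46 with it. Beyond that term, run and group cannot be told apart in comparisons of Myc primary or Shh tumours with GFP-positive cells or Myc secondary tumours.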

How the data were processed

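Each of the 15 mouse RNA samples, 5 groups of 3, was read on its own 1-colour Affymetrix HT_MG-430_PM array. The deposited values are the authors' log2 signals from RMA in Partek 6.5, per the submitters' processing notes; further settings were not given in the sources used here. They were used as deposited, and the number of arrays limits their precision. Of 45141 probe sets, 104 controls, 15588 others with no listed gene and 551 with several genes were left out. Symbols were updated through RefSeq (GRCm38.p6), which changed no member. Each gene was represented by its probe set with the highest mean; 51 members had several. Background was set at 4.77, the level that 95% of the readings of the 23 nonspecific control probe sets, pooled over the 15 arrays, stay under. Levels of different probe sets were not compared.

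All 15 arrays entered 1 one-way fit with limma 3.58.1 in R 4.3.3 (lmFit and eBayes, 10 residual and 2.54 prior degrees of freedom), two-sided, with Benjamini-Hochberg adjustment over 17097 genes; the F test covered the 5 groups. Errors of differences are standard errors of that fit. The fit was tested on simulated data. Members, families, other lists, tests and alternatives were chosen with earlier results of these data known. Named in every comparison were the largest called differences, 10 in each direction for Myc primary against Shh tumours and 6 elsewhere. Per-array values were given for the 10 smallest F test p, for the neuronal members except Nova2, and for Hnrnpa1, Srsf1 and Elavl1. Up to 3 genes of each other splicing list were given with group means or differences. Snrpa, Sf3b3, Hnrnph1, Hnrnpul1, Hnrnpk, Celf2 and the Srsf3, Hnrnpa2b1, Hnrnpr and Snrpn probe sets were described further after their values were seen. Figures were drawn with matplotlib 3.10.9. Alternatives were averaging over the probe sets of each gene, each probe set alone, a filter on dim genes, cyclic loess, centring on the median gene, the 6 arrays of a comparison alone, an intensity trend with robust variance (statmod 1.5.0), array weights, single arrays left out, 3 arrays that stood apart left out, and a term for the 2 runs of titles. The 3 arrays (Myc primary 3, GFP-negative 3 and Myc secondary 1) were picked by name, with no numeric cut-off stated here.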

Additional observations from a re-analysis of the deposited data

How the results depend on the processing

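No paired analysis was possible because the labels give no replicate numbers that link samples of different groups. Counts of called members are given as higher and lower, and those not printed stayed within 1.5 times the main count. The shares over all genes moved with the setting too. For Shh tumours against GFP-positive cells they went from 4.63% and 2.92% to 14.0% and 9.32% with array weights. For Myc primary against Shh tumours (6 and 5), cyclic loess gave 9 lower, centring on the median gene 3 and 3, the 6 arrays alone 3 lower, the intensity trend 10 lower, array weights 9 lower, leaving out Myc primary 3, GFP-negative 3 and Myc secondary 1 gave 10 and 10, and the run term 9 lower. Of all genes 7.93% fell with cyclic loess, 6.18% with the 6 arrays alone, 7.26% with the intensity trend and 9.68% with array weights. Centring gave 8.14% and 7.41% of all genes, and the run term 8.88% lower. Without the 3 arrays 12.9% of all genes rose and 10.9% fell. For Myc primary against GFP-positive cells (21 and 20), centring gave 4 higher and the run term 0 and 5. Of all genes 9.21% rose with centring, and 7.51% rose and 9.29% fell with the run term. For Myc primary against GFP-negative cells (44 and 3), the dim filter, which kept 14988 genes and 82 members, gave 1 lower, cyclic loess 16 lower, centring 0 lower, the 6 arrays alone 0 lower and the intensity trend 5 lower. For Shh tumours against GFP-positive cells (2 and 5), the mean of probe sets gave 8 lower, cyclic loess 4 higher, centring 0 higher, the 6 arrays alone 7 and 11, the intensity trend 5 higher, array weights 13 and 17, the 3 arrays left out 7 and 10 and the run term 0 and 1. Of all genes 3.67% fell with the mean of probe sets, 5.54% rose with cyclic loess, 2.81% with centring and 4.89% with the intensity trend. The 6 arrays alone gave 11.8% and 6.61% of all genes, and array weights 14.0% and 9.32%. The 3 arrays left out gave 10.2% and 5.90% of all genes, and the run term 2.06% and 2.68%. For GFP-positive against GFP-negative cells (41 and 0), cyclic loess gave 22 and 3, centring 74 higher, and array weights or the 3 arrays left out 1 lower. Of all genes 7.76% rose and 17.5% fell with cyclic loess, and 44.0% rose with centring. With array weights 20.7% of all genes fell, and 17.9% with the 3 arrays left out. For secondary against primary Myc tumours (0 and 0), the mean of probe sets gave 1 higher, centring and array weights 4 higher, the 3 arrays left out 2 higher and the run term 2 and 1. Of all genes 0.924% rose with the mean of probe sets, 1.25% with centring, 1.11% with array weights and 0.743% with the 3 arrays left out. The run term gave 2.69% and 2.34% of all genes. Counted by probe set (of 194), the counts in the same order were 13 and 16, 32 and 48, 86 and 8, 5 and 18, 90 and 0, and 2 and 0, with 137 in the F test. With single arrays left out, the ranges were 1 to 6 and 2 to 5, 16 to 19 and 13 to 23 (13 without GFP-positive 1), 40 to 43 and 0 to 3, 0 to 1 and 1 to 3, 33 to 41 and 0 to 1, and 0 to 1 and 0 to 1, with 58 to 67 in the F test; of the calls, 3 of 11, 28 of 41, 39 of 47, 1 of 7 and 30 of 41 held throughout. Shares of all genes then ran from 5.26% to 7.24% and 5.23% to 6.70% for Myc primary against Shh tumours. They were 10.7% to 13.4% and 7.48% to 9.50% against GFP-positive cells, and 16.0% to 19.3% and 12.3% to 16.5% against GFP-negative cells. Shh tumours had 2.42% to 3.45% and 1.47% to 2.26%, and GFP-positive against GFP-negative cells 8.86% to 13.6% and 11.2% to 15.7%. Secondary tumours had 0.0468% to 0.368% and 0.0994% to 1.25%. Differences turned sign with the mean of probe sets for Prpf4b in Myc primary against GFP-negative cells (0.11) and Hnrnpa2b1 in GFP-positive against GFP-negative cells (-0.077), with cyclic loess for Snrpe in Myc primary against GFP-negative cells (-0.027), and with the run term for Prpf3 (-0.22) and Sf3a1 (-0.082) in Myc primary against GFP-positive cells and Sf3b3 (-0.052) in Shh tumours against GFP-positive cells. Apart from the smaller sets of arrays or genes tested, the cause was not tested. Signals near background, as for Celf3 and Nova2, limit what can be seen.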
